A study of Mus musculus with 6 samples.

Results

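Genes of leukocyte adhesion were followed in leukemic mouse bone marrow, 9 in all, taken by symbol with earlier results of these data already known: Itgal, Itgam, Itgb2, Itga4, Itgb1, Itgb7, Itgae, Selplg and Icam1. Each symbol matched 1 of the 54532 genes in the deposited expression table, and all 9 passed the filter on low values that left 13393 genes for testing. The comparison was between 3 RNA-seq libraries labelled WT and 3 labelled KO. Lineage-negative bone marrow cells came from young adult male Phf6 fl/y donors (WT) or Vav1-Cre;Phf6 fl/y donors (KO), in which the Vav1 promoter drives Cre in blood-forming cells. Both groups carried the activating kinase mutant JAK3 M511I, delivered with GFP by retrovirus, and both were grown in irradiated male recipients, so neither group was free of the JAK3 allele. The labels date the bone marrow to day 100, and the sources used here do not say whether GFP-positive cells were purified before RNA was made. Nor do they say whether the 3 libraries of a group came from separate recipients, so the p-values measure only the spread between these libraries, which may be technical.

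Integrins are pairs of an alpha and a beta chain that span the membrane and grip ligands on other cells or in the matrix once signals inside the cell switch them on. The beta chain Itgb2 pairs with Itgal (LFA-1), Itgam (Mac-1), Itgax or Itgad, the chain Itgb1 pairs with Itga4 (VLA-4) and many other alpha chains, and Itgb7 pairs with Itga4 or Itgae. Selplg (PSGL-1) is the sugar-decorated protein on leukocytes that selectins catch during rolling, and Icam1 is the ligand that LFA-1 and Mac-1 hold. LFA-1 is the main integrin of T cells, whereas Mac-1 is best known from neutrophils and monocytes.

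Of the 9 genes, 1 was higher in the libraries labelled KO (Itgae), 3 were lower (Itgam, Itgb7 and Selplg) and 5 did not pass the test. Itgam had reached the filter on low values through the WT libraries alone. Over all genes tested, 26.4% passed in either direction, 13.1% being higher and 13.3% lower. The median difference of the 9 genes was −0.60 on the log2(FPKM + 1) scale, beside 0.086 over all genes tested. The libraries of the groups did not overlap for 5 of the 9 genes, against 49.1% of all genes tested. FPKM counts fragments scaled to gene length and library size, so levels of different genes can be set side by side. Differences are libraries labelled KO minus libraries labelled WT in limma, with p-values adjusted by Benjamini-Hochberg over all genes tested and a threshold of 0.05. Levels are given as mean ± SD with n = 3 libraries a group.

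The libraries held between 13015823 and 18235095 reads, recovered from the FPKM values and gene lengths. WT 2 stood apart: genes under 1000 bases long took 17.1% of its reads (3.11% to 5.01% elsewhere), and its log2 values correlated with WT 1 and WT 3 at 0.779 and 0.746, whereas WT 1 and WT 3 correlated at 0.948 (across genes, which are not independent replicates). Genes of 8000 bases or more took 6.74% of its reads (22.9% to 26.5% elsewhere), and ribosomal protein genes 21.6% (5.16% to 6.94% elsewhere). Levels of a short and a long gene are thus less comparable within WT 2. Without WT 2, 8 of the 9 genes passed the test, 1 higher and 7 lower, beside 52% of all genes tested. Without KO 1, KO 2 or KO 3 in turn, 1 of the 9 genes was lower (Itgam), and without WT 1 or KO 1 none was higher in limma (0 of 9). Over all genes those fits called 2071 (without KO 1), 1934 (without KO 2), 2021 (without KO 3) and 2620 (without WT 1), against 3539 with all libraries. T cell marker genes were present throughout, all 12 at an FPKM of 1 or more in each library, with a summed FPKM of 1475 to 3000 in the WT and 1215 to 1513 in the KO libraries. The sum of 3000 was that of WT 2, beside 1475 in WT 1 and 1603 in WT 3. Of the 12 markers, 1 was higher and 2 were lower in the libraries labelled KO. Phf6 itself was measured at 7.47, 3.67 and 8.02 FPKM in WT 1 to 3 and at 6.73, 5.50 and 5.11 in KO 1 to 3, and did not pass the test (−0.073, adjusted p = 0.893). The floxed segment is only part of the gene, so a level summed over the whole gene does not check the KO label.

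**Figure D1:**
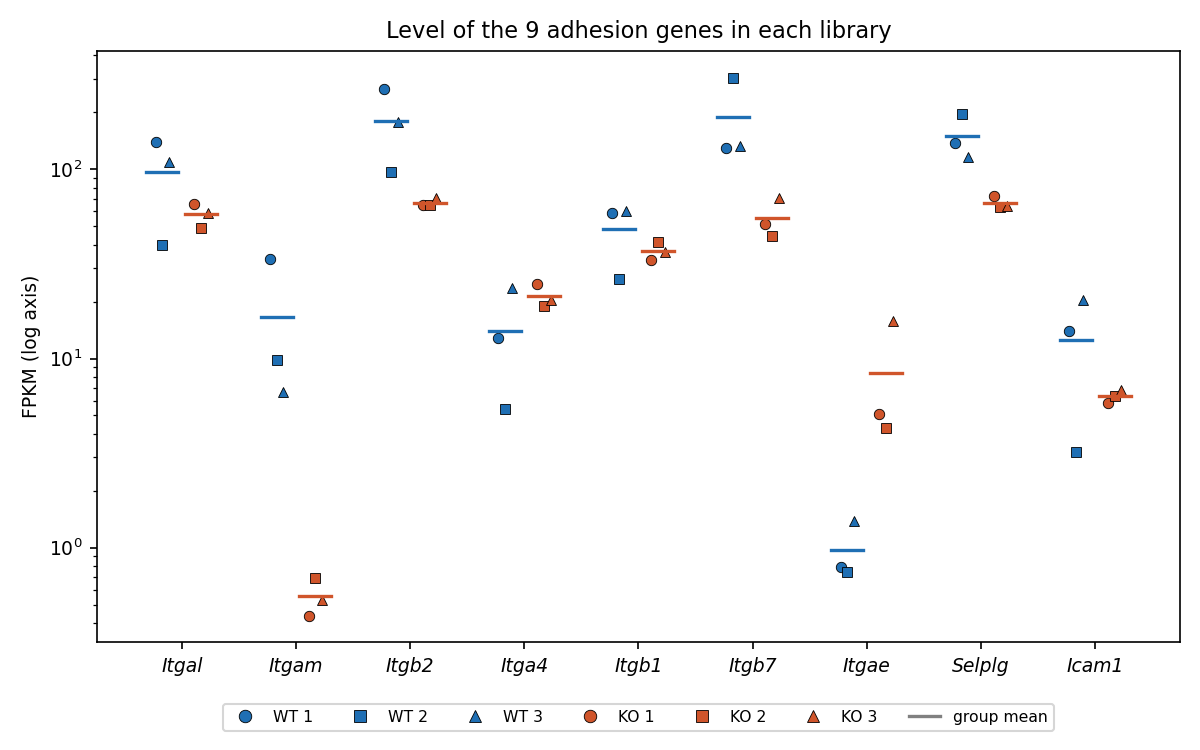
FPKM of each of the 9 genes in every library on a log axis, with WT libraries in blue, KO libraries in orange, one marker shape per library number and a bar at the group mean. Itgam lies between 0.438 and 0.695 in the KO libraries, below every WT library, and Itgae lies above every WT library.

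To show the sequence just upstream of a pair of genes that were lower in the libraries labelled KO, the 250 bases before the RefSeq start are printed 5′ to 3′ on the gene's own strand, from the RefSeq promoter table on GRCm38.p6, which held 5 of the 9 genes (Itga4, Itgam, Itgb1, Itgb7 and Icam1). Capitals mark a match, on either strand, to 1 of the 4 short motifs searched: GAGGAA, the core bound by PU.1 and other ETS factors; TGTGGT, the core bound by RUNX factors; GGGCGG, the GC box; and TATAAA, the TATA box. No match overlapped another.
Itgam, chr7:128062390-128062639, plus strand: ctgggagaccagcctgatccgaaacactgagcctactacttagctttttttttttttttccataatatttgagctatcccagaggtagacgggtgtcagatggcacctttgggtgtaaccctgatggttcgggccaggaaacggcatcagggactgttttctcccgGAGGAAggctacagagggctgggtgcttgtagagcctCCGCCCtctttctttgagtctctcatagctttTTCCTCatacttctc
Itgb7, chr15:102231936-102232185, minus strand: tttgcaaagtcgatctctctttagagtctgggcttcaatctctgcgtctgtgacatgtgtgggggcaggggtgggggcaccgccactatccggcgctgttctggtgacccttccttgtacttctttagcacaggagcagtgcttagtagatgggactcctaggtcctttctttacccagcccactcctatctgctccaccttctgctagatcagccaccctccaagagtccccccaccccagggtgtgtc
The Itgam window held GAGGAA at −84 to −79 on the gene's strand and at −15 to −10 on the opposite strand, and the GC box at −47 to −42 on the opposite strand, counted back from the start. The Itgb7 window held 0 of the 4 motifs, which says only that those letters are not in these bases. Among all 32851 windows of the same length, 23.3% held GAGGAA, 14.0% TGTGGT, 32.7% GGGCGG and 12.4% TATAAA. Of the other windows, Itga4 held TGTGGT and GGGCGG, Itgb1 held GAGGAA and GGGCGG, and Icam1 held GGGCGG.

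Itgam, the alpha chain of Mac-1, showed the widest difference among the 9 genes. This gene (ENSMUSG00000030786, chr7:128062640-128118491, plus strand, GRCm38) was measured at 33.5, 9.80 and 6.64 FPKM in WT 1 to 3 and at 0.438, 0.695 and 0.532 in KO 1 to 3. All 3 KO libraries lay below all 3 WT libraries, and the values rested on 41 to 55 reads in the former and 517 to 2600 in the latter. The mean level was 16.7 ± 14.7 in the WT and 0.555 ± 0.1302 in the KO libraries, 30.01-fold lower, and the log2 difference was −3.19 (SE 0.56, 95% interval −4.53 to −1.85, limma adjusted p = 0.00777). It passed the filter on low values through the WT libraries alone, as did 838 of the 1785 genes called lower, so its difference was in part fixed by the filter. The call held in all 18 alternative analyses, with adjusted p from 7.7e-05 to 0.0412, and without WT 1, the library with the highest level, the difference was −2.55. Its exons overlap those of Gm49368 on the same strand, so the reads of the overlap could belong to either gene.

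Markers of myeloid cells moved with Itgam. All 14 neutrophil markers were lower in the libraries labelled KO, and their summed FPKM was 6829 to 94845 in the WT against 93.9 to 288 in the KO libraries. Of the 11 monocyte and macrophage markers tested, 7 were lower, with a summed FPKM of 613 to 5148 against 18.5 to 30.7. The order within the WT group was not shared, since WT 2 had the highest neutrophil sum and WT 1 the highest Itgam level. In bulk RNA, fewer cells of a type and less RNA per cell cannot be told apart, and the part of these cells in the Itgam difference was not tested. Other marker lists varied too, with sums of 708 to 2470 in the WT against 16.8 to 70.8 FPKM in the KO libraries for B cells (1 of 5 tested lower), 138 to 68103 against 10.8 to 121 for erythroid cells (0 of 7 called in limma) and 2.94 to 35.8 against 0.233 to 0.551 for megakaryocytes. The highest of each of these sums was that of WT 2. In WT 1 and WT 3 the erythroid sum was 138 and 531, the megakaryocyte sum 3.26 and 2.94, and the B cell sum 708 and 1320. Stromal and endothelial markers summed to 6.17 to 11.4 against 30.8 to 40.5, nearly all of it from Pecam1 and Pdgfrb, the 2 of 9 that were tested and both higher, while the endothelial genes Kdr and Emcn were at 0 in all KO libraries.

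Itgb2, the beta chain shared by LFA-1 and Mac-1, was among the most abundant of the 9 genes. Its FPKM (ENSMUSG00000000290, chr10:77530252-77565708, plus strand) was 266, 96.2 and 178 in WT 1 to 3 and 64.7, 64.5 and 70.3 in KO 1 to 3. The groups did not overlap, and the KO libraries were tightly grouped at 66.5 ± 3.26 against 180 ± 85.1 in the WT libraries. The log2 difference was −1.31 (SE 0.41, interval −2.30 to −0.31) and missed the threshold (limma adjusted p = 0.0616). Without WT 2 it was −1.70 and passed (adjusted p = 0.00129), whereas quantile normalization and rescaling to TPM brought it to −0.79 and −0.48 (adjusted p = 0.348 and 0.624).

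Itgal, the alpha chain of LFA-1 (ENSMUSG00000030830, chr7:127296260-127335138, plus strand) was measured at 140, 39.7 and 110 FPKM in WT 1 to 3 and at 65.6, 49.2 and 59.1 in KO 1 to 3. WT 2 lay below every KO library and the other WT libraries lay above them, so the groups overlapped. The difference of −0.55 (SE 0.50, interval −1.74 to 0.64) did not pass (limma adjusted p = 0.466), while without WT 2 it was −1.09 and passed (adjusted p = 0.00452). Rescaling each library to TPM turned its sign, to 0.28, and removing each library's trend over gene length gave −0.71 (limma adjusted p = 0.211).

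The remaining partners of Itgb2 went in opposite directions. Itgax, which marks dendritic and other myeloid cells, was measured at 14.9, 8.57 and 20.8 FPKM in WT 1 to 3 and at 0.168, 0.172 and 0.259 in KO 1 to 3, a log2 difference of −3.64 (limma adjusted p = 0.000857). Its order within the WT group was not that of the neutrophil and monocyte sums, which were highest in WT 2 and lowest in WT 3. Itgad, a neighbouring gene of the same family, was low in every library, at 0.603, 0.660 and 0.772 against 1.30, 2.18 and 2.66, and was higher in the libraries labelled KO by 0.83 (adjusted p = 0.0399). Itgad reached the filter on low values through the KO libraries alone, as Itgax did through the WT libraries. Its call held in 7 of 17 alternatives, and among those that lost it were the fits without WT 1, WT 3, KO 2 or KO 3 (0.69 to 0.87, adjusted p from 0.0788 to 0.133), no filter on low values (adjusted p = 0.118) and quantile normalization (adjusted p = 0.101). Among the 4 alpha chains of Itgb2, Itgal made up 74.1%, 67.6% and 79.5% of the summed FPKM in WT 1 to 3 and 97.2%, 94.2% and 94.5% in KO 1 to 3. That share was higher in every KO library, although the level of Itgal was not. The alpha chains summed to 0.710, 0.610 and 0.776 of the Itgb2 level in WT 1 to 3 and to 1.04, 0.810 and 0.890 in KO 1 to 3. These shares and ratios are given as values with no test, and those of WT 2 also carry its larger part of reads from short genes.

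**Figure D2:**
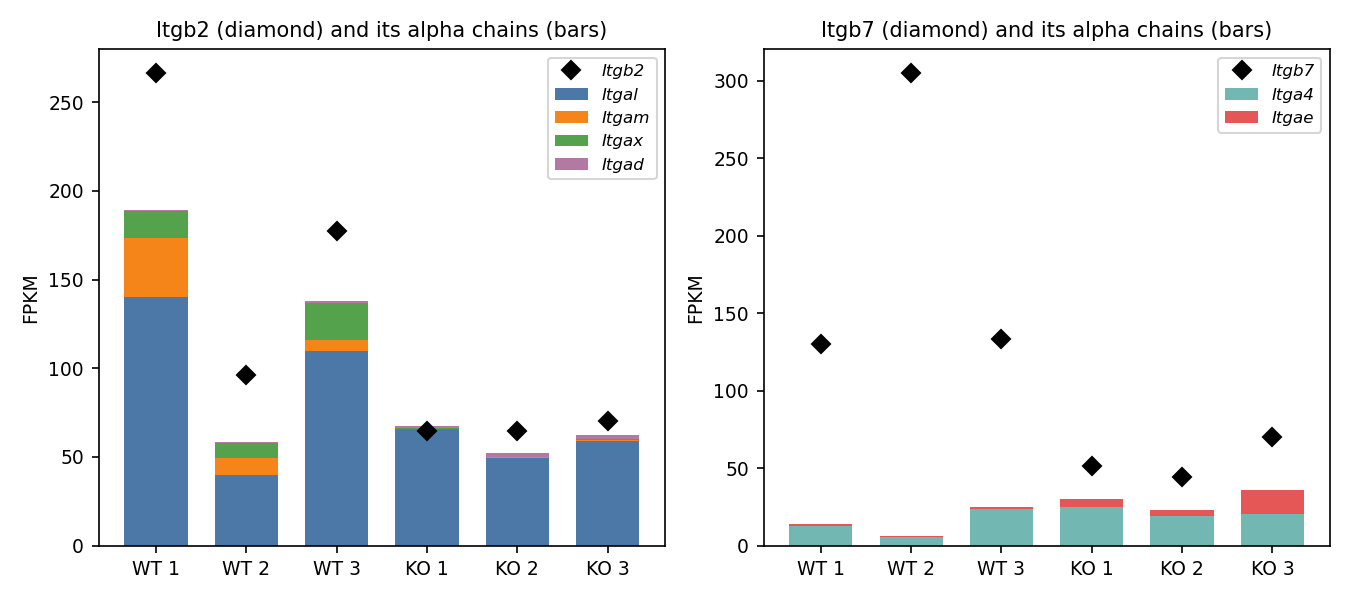
FPKM of alpha chains (stacked bars) and of their shared beta chain (black diamond) in each library, for Itgb2 on the left (Itgal, Itgam, Itgax and Itgad) and for Itgb7 on the right (Itga4 and Itgae). Itgal takes 94.2% to 97.2% of the Itgb2 partners in the KO libraries, and Itgae takes 17.2% to 43.8% of the Itgb7 partners there against 5.56% to 12.1% in the WT libraries.

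Itgb7 and Itgae, which together form the receptor for E-cadherin on T cells of the gut lining, changed in opposite directions. Itgb7 (ENSMUSG00000001281, chr15:102215995-102231944, minus strand) was measured at 130, 305 and 133 FPKM in WT 1 to 3 and at 51.3, 44.3 and 70.5 in KO 1 to 3. No KO library reached a WT library, and WT 2 was the highest of the 6. The mean was 190 ± 100 in the WT and 55.3 ± 13.5 in the KO libraries, 3.42-fold lower, with a log2 difference of −1.66 (SE 0.42, interval −2.68 to −0.64, limma adjusted p = 0.0302). Without WT 2 the difference was −1.26 (adjusted p = 0.00456). The call was lost without KO 1, KO 2 or KO 3 (−1.62, −1.52 and −1.85, adjusted p = 0.113, 0.132 and 0.0733) and after rescaling to TPM (−0.84, adjusted p = 0.0751), and it passed in 12 of 18 alternatives (adjusted p from 0.000617 to 0.132).

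Itgae (ENSMUSG00000005947, chr11:73090583-73147446, plus strand), known as CD103, was measured at 0.792, 0.743 and 1.38 FPKM in WT 1 to 3 and at 5.12, 4.31 and 15.8 in KO 1 to 3. All KO libraries were above all WT libraries, and KO 3 was the highest. Reads numbered 40 to 98 in the WT and 311 to 1165 in the KO libraries. Among the WT libraries only WT 3 was at an FPKM of 1 or more, so Itgae needed the KO libraries to reach the filter. The mean rose from 0.972 ± 0.355 to 8.41 ± 6.41, 8.66-fold, and the log2 difference was 2.07 (SE 0.47, interval 0.94 to 3.19, limma adjusted p = 0.0202). Without KO 3 it was 1.55 and still passed (adjusted p = 0.0232), whereas without WT 1 or KO 1 it was 2.005 and 2.27 and did not (adjusted p = 0.0651 and 0.0506). Haspin, which lies within the span of Itgae on the opposite strand and shares no exon bases with it, was at 3.57, 4.99 and 3.35 FPKM in WT 1 to 3 and 6.90, 7.10 and 11.6 in KO 1 to 3 (adjusted p = 0.0627). Whether counting used strand is not given in the sources used here.

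E-cadherin, encoded by Cdh1 and the ligand of the Itgae and Itgb7 pair, was itself higher in the libraries labelled KO. Its FPKM was 4.99, 2.34 and 5.47 in WT 1 to 3 and 42.1, 24.8 and 46.0 in KO 1 to 3, a log2 difference of 2.89 (limma adjusted p = 0.00264). Markers of the thymocyte stage rose as well, with all 8 higher and a summed FPKM of 27.1 to 40.5 in the WT against 1108 to 1270 in the KO libraries, and Ptcra at 0 in all 3 WT libraries. Of 11 effector and NK cell markers tested, 10 were lower and Gzma, encoding granzyme A, was higher (4.42, limma adjusted p = 0.00165), with sums of 1995 to 5367 against 587 to 663. The part of these differences in the levels of Itgae and Itgb7 was not tested.

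Itga4 and Itgb1, the chains of VLA-4, which holds VCAM-1 and fibronectin, did not pass. Itga4 (ENSMUSG00000027009, chr2:79255426-79333123, plus strand) was measured at 12.9, 5.41 and 23.5 FPKM in WT 1 to 3 and at 24.7, 18.9 and 20.3 in KO 1 to 3. WT 3 lay inside the KO range and WT 2 far below it. The difference was 0.77 (SE 0.49, interval −0.40 to 1.95, limma adjusted p = 0.302), 0.27 without WT 2, 1.23 without WT 3 (adjusted p = 0.0812) and 1.61 on the TPM scale, and it passed with array weights (0.54, adjusted p = 0.0447). With each library's trend over gene length removed it was 0.41 (adjusted p = 0.323). Itgb1 (ENSMUSG00000025809, chr8:128685654-128733200, plus strand) was measured at 58.6, 26.4 and 60.4 FPKM in WT 1 to 3 and at 33.1, 41.1 and 36.5 in KO 1 to 3. Here too WT 2 lay below and the other WT libraries above the KO libraries, and the difference of −0.30 (SE 0.37, interval −1.19 to 0.59) did not pass (adjusted p = 0.603). Without WT 2 it was −0.68 and passed (adjusted p = 0.00855), and on the TPM scale it was 0.53. Exons of Itga4 overlap those of Cerkl on the opposite strand. Set against Itgb7, the sum of Itga4 and Itgae was 0.105, 0.0202 and 0.186 of the beta chain level in WT 1 to 3 and 0.582, 0.524 and 0.512 in KO 1 to 3, values with no test. Itga4 is 13978 bases long and Itgb7 2770, so the ratio of WT 2 also carries that library's larger part of reads from short genes.

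Selplg (ENSMUSG00000048163, chr5:113818536-113832644, minus strand), the selectin ligand, was measured at 137, 197 and 116 FPKM in WT 1 to 3 and at 72.4, 63.6 and 64.2 in KO 1 to 3. The groups did not overlap. The mean was 150 ± 42.0 in the WT and 66.7 ± 4.90 in the KO libraries, 2.25-fold lower, and the log2 difference was −1.12 (SE 0.30, interval −1.85 to −0.40, limma adjusted p = 0.0361). The call was lost without WT 1, KO 1, KO 2 or KO 3 (−1.17, −1.18, −1.09 and −1.10, adjusted p = 0.0859, 0.109, 0.151 and 0.143), while without WT 2 it held (−0.91, adjusted p = 0.00344). Quantile normalization and rescaling to TPM brought it to −0.46 and −0.29, neither past the threshold, and it passed in 10 of 18 alternatives (adjusted p from 0.000253 to 0.503).

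Icam1 (ENSMUSG00000037405, chr9:21015985-21028817, plus strand), the ligand of LFA-1 and Mac-1, was measured at 14.0, 3.22 and 20.4 FPKM in WT 1 to 3 and at 5.81, 6.34 and 6.78 in KO 1 to 3. WT 2 was again below the KO libraries and the other WT libraries above. The difference was −0.60 (SE 0.59, interval −2.03 to 0.83, limma adjusted p = 0.514), −1.29 without WT 2 (adjusted p = 0.00297) and 0.14 on the TPM scale. The antisense gene Gm47079 shares exon bases with it.

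**Figure D3:**
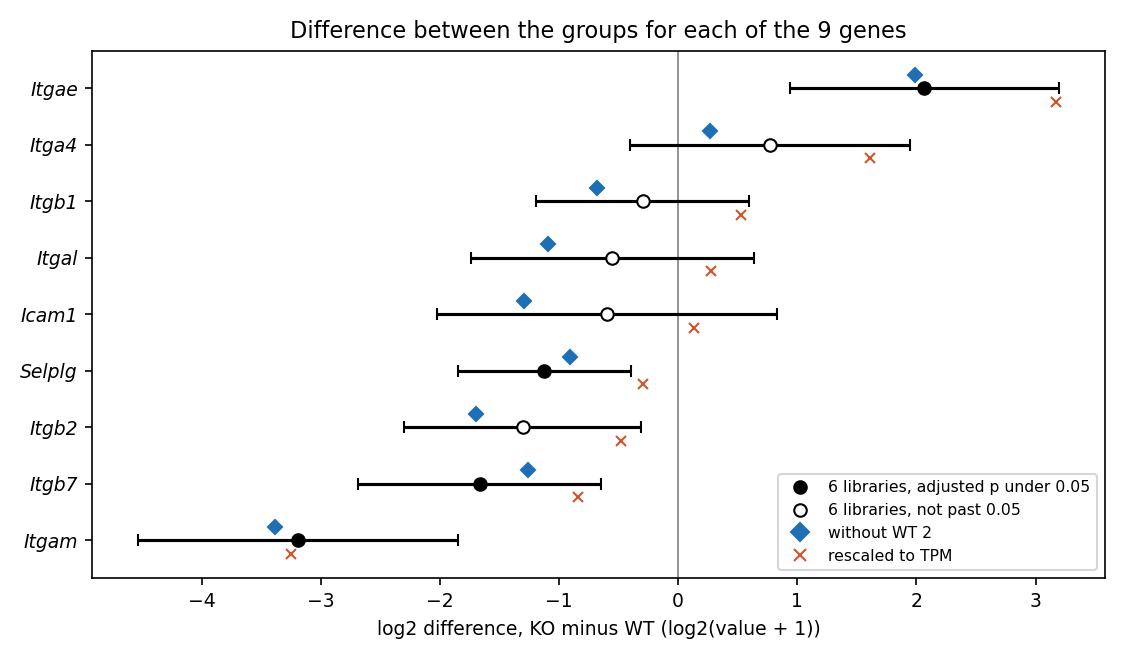
Log2 difference of each of the 9 genes, libraries labelled KO minus libraries labelled WT on the log2(FPKM + 1) scale, drawn as circles with 95% intervals from limma (filled where past the threshold), as blue diamonds without WT 2 and as orange crosses after rescaling to TPM. Itgam, Itgb7 and Selplg lie below 0 and Itgae above 0 past the threshold with all libraries, and without WT 2 the diamonds of Itgal, Itgb2, Itgb1 and Icam1 move further below 0 while that of Itga4 moves towards 0.

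By level, the genes ran in a different order in the 2 groups. In the WT libraries the order of the mean FPKM was Itgb7, Itgb2, Selplg, Itgal, Itgb1, Itgam, Itga4, Icam1 and Itgae, and every pair of neighbours in it overlapped in range except Icam1 and Itgae. In the KO libraries it was Selplg, Itgb2, Itgal, Itgb7, Itgb1, Itga4, Itgae, Icam1 and Itgam, where the first 4 overlapped from each neighbour to the next, as did Itgae and Icam1, and the other neighbours did not. Itgam thus ranked 6 of 9 in the WT and 9 of 9 in the KO libraries. Itgb7 came first in the WT order only through WT 2, at 305 FPKM against 96.2 for Itgb2. In WT 1 and WT 3 Itgb2 was above Itgb7 (266 against 130 and 178 against 133). Ranges leave out the order inside a library: Itgal was above Itgb1, and Itgb1 above Itgam, in every WT library. Among the KO libraries, Selplg was above Itgb2 only in KO 1, and Itgae above Icam1 only in KO 3.

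The genes with the most similar profile over the 6 libraries, by mean absolute difference of log2(FPKM + 1) centred on each gene's mean, were 6430548M08Rik (0.060) and Clec5a (0.097) for Itgam. For Itgb7 they were Gnal (0.058) and Tagln2 (0.10), for Itgae 9530077C05Rik (0.11) and Gbp6 (0.17), and for Selplg Sirt2 (0.045) and Mib2 (0.059).

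The wider adhesion network comprised 71 further genes in 7 lists, of which 44 were tested. Of these, 5 were higher (11.4%) and 15 lower (34.1%) in the libraries labelled KO, with a median difference of −0.42, beside 13.1% and 13.3% of all genes tested. Without KO 2 or KO 3 the number higher was 3 in each case. The lower count held between 10 and 22 when single libraries were left out. Among these calls, 3 of the 5 higher and 7 of the 15 lower genes had reached the filter through 1 group alone, so their difference was in part fixed by it, and no support is drawn from the counts. Over all genes tested that held for 653 of 1754 higher and 838 of 1785 lower calls.

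Among 14 other integrin alpha chains, 6 were tested, 2 higher and 1 lower (median 0.65). Besides Itgad and Itgax, described with Itgb2, Itga9, a partner of Itgb1, was measured at 0.0337, 0.166 and 0.0419 FPKM in WT 1 to 3 and at 27.9, 23.0 and 23.8 in KO 1 to 3, a difference of 4.58 (limma adjusted p = 0.000233). Of 5 other beta chains, 2 were tested. Itgb4, the laminin receptor chain that pairs with Itga6, went from 0.0646, 0.0970 and 0.101 to 15.5, 13.9 and 12.7 (3.78, adjusted p = 0.000259). Itgb3, the chain of platelets and osteoclasts, was lower, at 21.7, 16.4 and 12.2 against 3.77, 1.77 and 2.71 (−2.25, adjusted p = 0.00397), a call that rescaling to TPM ended (−1.70, adjusted p = 0.0711). Neither Itga9 nor Itgb4 had more than 15 reads in a WT library, and both reached the filter through the KO libraries alone.

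Of 11 other ligands, 4 were tested, 1 higher (Cdh1) and 2 lower (median −1.37). Fn1, fibronectin, was at 25.0, 10.3 and 5.99 in WT 1 to 3 and 0.193, 0.223 and 0.202 in KO 1 to 3 (−3.40, limma adjusted p = 0.00355). Vcam1, the counter-receptor of VLA-4, was at 2.98, 1.21 and 1.47 against 0.0847, 0.251 and 0.105 (−1.29, adjusted p = 0.0132), and did not pass without KO 1 or KO 3 (adjusted p = 0.0576 and 0.0564) or on the TPM scale (adjusted p = 0.0635). Fn1 and Vcam1 reached the filter through the WT libraries alone. Fn1 and Vcam1, which encode ligands of VLA-4, were thus called lower. Neither chain of VLA-4 passed in the same fit, although Itgb1 passed without WT 2.

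Of 17 genes that control integrin activation, including the inhibitors Sharpin and Itgb1bp1, 14 were tested, none higher and 3 lower (median −0.38). Rasgrp2, the exchange factor that loads Rap1 with GTP, was lower at 34.7, 34.5 and 30.5 against 7.01, 7.25 and 4.80 (−2.23, limma adjusted p = 0.00142), and missed the threshold on the TPM scale (−1.53, adjusted p = 0.0619). Skap2, an adaptor of integrin signalling in myeloid cells, was at 9.20, 4.08 and 2.73 against 0.151, 0.0839 and 0.0984 (−2.38, adjusted p = 0.00555). Skap2 reached the filter through the WT libraries alone, so its difference was in part fixed by the filter. Rap1b, the small GTPase itself, was at 231, 104 and 174 against 54.4, 58.6 and 62.4 (−1.45, adjusted p = 0.0276). The Rap1b call held in 9 of 18 alternatives. It was lost without WT 1, WT 3 or any 1 KO library (−1.19 to −1.49, adjusted p from 0.0719 to 0.111), under quantile normalization (−0.94, adjusted p = 0.212) and on the TPM scale (−0.62, adjusted p = 0.491). At an unadjusted p under 0.05 in limma 0 of them were higher, and by voom on the recovered reads 0.

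Of 12 genes of the adhesion complex inside the cell, 8 were tested, 1 higher and 2 lower (median −0.67). Zyx, the scaffold zyxin, was at 122, 192 and 80.7 in WT 1 to 3 against 9.51, 4.43 and 10.03 in KO 1 to 3 (−3.87, limma adjusted p = 0.0016), and Ptk2b, the kinase Pyk2, at 48.6, 28.5 and 37.8 against 11.2, 1.70 and 3.73 (−2.84, adjusted p = 0.0125). The Ptk2b call was lost without KO 3 (−2.74, adjusted p = 0.0577) and on the TPM scale (−2.25, adjusted p = 0.0952). Parvg, the parvin of blood cells, was higher at 63.4, 46.5 and 43.5 against 125, 137 and 188 (1.53, adjusted p = 0.0122), and did not pass without KO 2 or KO 3 (1.58 and 1.36, adjusted p = 0.0549 and 0.0612).

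The genes of selectin ligands, 8 enzymes that decorate carriers such as Selplg and the carriers Cd44 and Spn, held 6 lower and 0 higher among 10 tested in limma, with a median of −1.80. At an unadjusted p under 0.05, 1 was higher, and by voom on the recovered reads 0. St3gal6, a sialyltransferase, was at 11.2, 8.90 and 8.68 in WT 1 to 3 and 0.0261, 0.0206 and 0.121 in KO 1 to 3 (−3.32, limma adjusted p = 0.000292). Tpst2, which sulfates tyrosines, was at 64.2, 77.1 and 55.3 against 7.52, 7.30 and 8.34 (−2.92, adjusted p = 0.000486), and the sialyltransferase gene St3gal4 at 24.8, 21.4 and 22.0 against 6.72, 6.08 and 7.84 (−1.59, adjusted p = 0.00322), which on the TPM scale did not pass (−0.87, adjusted p = 0.235). The other 3 were Cd44, Fut7 and Gcnt1, named after their values were seen. St3gal6, Fut7 and Gcnt1 reached the filter through the WT libraries alone. All 14 neutrophil markers were lower beside these genes, as beside Itgam, and so were 10 of the 11 effector and NK cell markers tested. The neutrophil sum was 33644, 94845 and 6829 FPKM in WT 1 to 3, while St3gal6 and St3gal4 were highest in WT 1 and Tpst2 in WT 2. The part of either cell type in the list's differences was not tested. The selectin genes Sele and Selp, known from vessel walls and platelets, did not reach the filter, at 3.14, 0.175 and 4.36 FPKM in WT 1 to 3 and 0.258, 0.174 and 0.448 in KO 1 to 3 for Sele, and at 1.38, 0.463 and 0.658 against 0.0122, 0.0288 and 0.0563 for Selp.

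**Figure D4:**
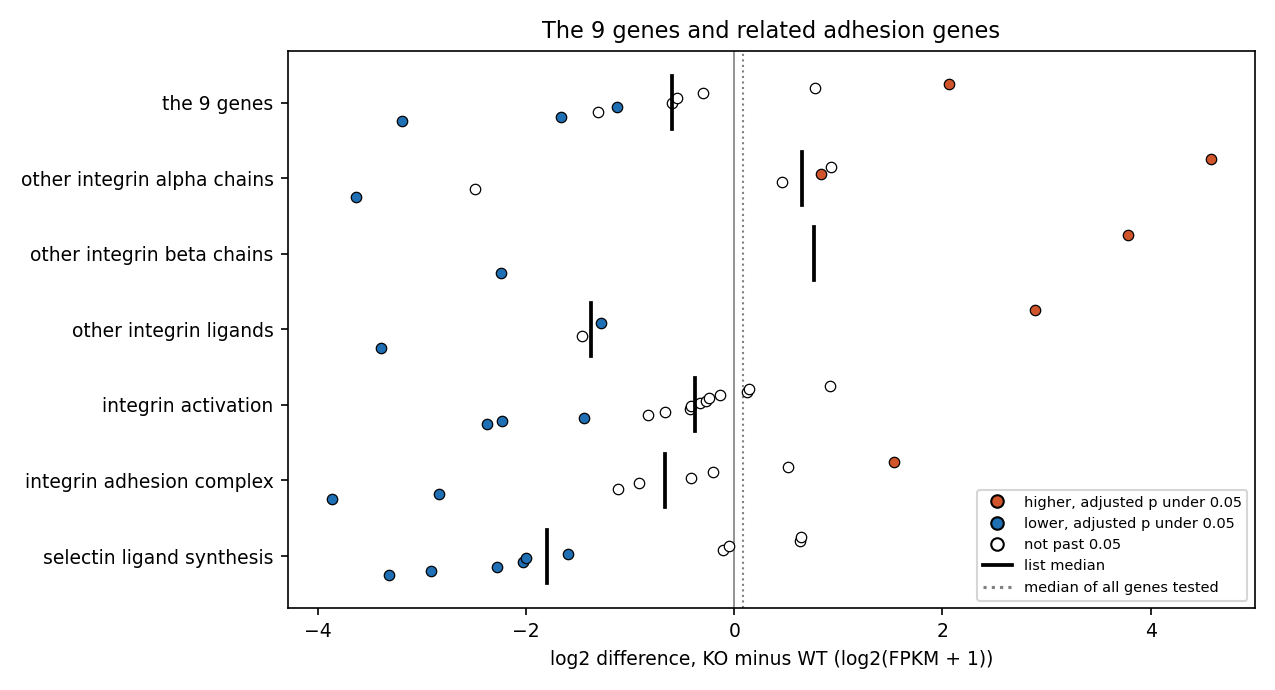
Log2 difference (libraries labelled KO minus libraries labelled WT, log2(FPKM + 1) scale) of every tested gene of the 9 followed genes and of the 6 adhesion lists that had any, with genes past the threshold filled orange (higher) or blue (lower), a black bar at each list's median and a dotted line at the median of all genes tested. The genes of selectin ligand synthesis have the lowest of the list medians, −1.80, with 6 of 10 lower. Of all genes tested, 13.3% were lower, and St3gal6, Fut7 and Gcnt1 among those 6 reached the filter through the WT libraries alone.

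Rescaling to TPM shifted the median of all genes to 0.86 and put 67.8% of all calls on the higher side, against 49.6% before. Relative to that shift, the differences on the TPM scale were −4.11 for Itgam, −1.70 for Itgb7, −1.15 for Selplg, −1.34 for Itgb2, −0.58 for Itgal, −0.33 for Itgb1 and −0.72 for Icam1, and 2.31 for Itgae and 0.75 for Itga4.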

How the data were processed

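RNA of bone marrow cells was sequenced in 6 libraries, 3 labelled WT and 3 labelled KO. Per the submitters' notes, reads were aligned with HISAT2 2.0.5 and counted with featureCounts 1.5.0-p3. The authors deposited FPKM values per gene, made by dividing read counts by gene length and library size. The strand setting and the order of the steps are not given in the sources used here. The count test named in the study's methods needs counts, so log2(FPKM + 1) was tested with limma 3.58.1 in R 4.3.3 (eBayes with trend, two-sided) for genes whose FPKM was 1 or more in 3 or more libraries, with Benjamini-Hochberg adjustment and a threshold of 0.05. The pseudocount of 1 understates changes of low genes. With 3 libraries a group, the smallest p that exact permutation can reach is 0.1. Multiplied by gene length, 100% of the FPKM values came out as whole reads within a tolerance of 0.01, and these recovered reads gave the depth (13015823 to 18235095) and a voom alternative. Library sizes used by the authors were 0.645 (WT 2) to 1.21 of the recovered totals.

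Gene coordinates were those in the file, identical to GENCODE M21 (GRCm38) for 53462 of 54532 genes. The 9 genes and all gene lists were chosen with earlier results of these data known. Genes named from the adhesion lists were up to 3 higher and 3 lower past the threshold with the smallest p-values in each list, with Itgax and Itgad always named, and Phf6 as the deleted gene. Itga9, Itgad, Itgb4, Itgam and other genes at an FPKM under 1 in all libraries of 1 group reached the filter through the other group alone. 2 genes of the planned adhesion lists are not reported here and were left out of the lists' counts. The genotype labels of replicates 2 and 3 give the gene name with a running number and were read as Phf6 from the design text. Same-numbered WT and KO libraries did not deviate together in all pairs (r of 0.0954, 0.105 and −0.153 across genes), so the numbers were not treated as pairs. The fit was tested on simulated data. The simulated libraries were independent, with the same spread in both groups, so that test does not cover a library that stands apart, as WT 2 does.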

Additional observations from a re-analysis of the deposited data

How the results depend on the processing

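Except for voom on the recovered reads, each of the 18 alternatives changed 1 choice. Voom changed the unit, the pseudocount, the weights and the eBayes trend together. With all libraries 3539 genes were called, against 1837 at a mean FPKM of at least 5 and 8461 with array weights, which gave WT 2 a weight of 0.0509, and 1934 (without KO 2) to 6967 (without WT 2) when single libraries were left out. Of the 9 genes, the number higher, 1 with all libraries, was 0 at a mean FPKM of at least 5, where Itgae was not tested, 2 with array weights and 0 to 1 over the left-out libraries. The number lower, 3 with all libraries, was 1 with no filter on low values, 1 after rescaling to TPM, 7 with array weights and 1 to 7 over the left-out libraries. Of the adhesion lists, 9 genes were higher with array weights and 3 to 6 over the left-out libraries, against 5, while 9 were lower after rescaling to TPM and 26 with array weights, against 15. With the replicate block, 2676 genes were called, 1 of the 9 genes was lower, and 3 genes of the adhesion lists were higher. Rescaling to TPM turned the sign of Itgal (0.28), Itgb1 (0.53), Icam1 (0.14) and Phf6 (0.69), none past the threshold in either form, while the median of all genes moved to 0.86, and relative to that median Itgal, Itgb1 and Icam1 stayed below 0 (−0.58, −0.33 and −0.72), and Phf6 ran from −0.37 to 0.10 over the left-out libraries. For the 9 genes, 133 single-gene values kept direction and side of the threshold, 9 gained a call, 16 lost one and 3 turned (those TPM values), and for the other named genes the numbers were 287, 0, 30 and 3. The cause of these changes was not tested. Itgam rested on only 41 to 55 reads in the KO libraries, and 44 of the 71 list genes had levels high enough to test.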

Other observations

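Several adhesion genes outside the tests or lists, named after their values were seen, were also low in the libraries labelled KO. Itgb2l, a beta chain gene related to Itgb2, was at 51.4, 22.8 and 11.01 FPKM in WT 1 to 3 and at 0.149, 0.367 and 0.532 in KO 1 to 3 (log2 difference −4.20, limma adjusted p = 0.00243). Itga2, a collagen receptor chain that pairs with Itgb1, was at 11.4, 0.632 and 12.3 FPKM against 0.617, 0.579 and 0.305, and did not reach the filter on low values. Itga5, the fibronectin receptor chain that pairs with Itgb1, was at 2.94, 6.79 and 0.654 against 0.0218, 0.0258 and 0.0126, and was not tested for the same reason. Jam3, a junctional adhesion molecule that Mac-1 can bind, was instead at 0.202, 0 and 0.565 against 1.19, 1.41 and 0.951, also below the filter.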
